A study of Homo sapiens with 9 samples.

Results

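Bile acid metabolism was followed in HepG2 cells through 10 genes: the regulators NR0B2, NR1H4 and FGF19, the hydroxylases CYP7A1, CYP8B1 and CYP7B1, the conjugating enzyme BAAT, and the transporter genes SLC51A, SLC51B and SLC10A1. The genes were taken by symbol from a named list, and 9 of the 10 were measured among 17687 genes. NR1H4 is not analysed here, as the annotation used pairs no transcript cluster with that symbol. Each of the 9 genes was read by 1 transcript cluster of the Clariom S array, a microarray with probes for known human transcripts. HepG2 is a single cell line grown from a human liver tumour, so its response may not be that of normal hepatocytes. The VDR+VitD group carried an adenovirus encoding human VDR, the vitamin D receptor (Ad-VDR), for 48 h and then received 10 nM VitD (calcitriol) for 4 h. The VDR group carried Ad-VDR and received the DMSO vehicle instead, and the control group (CONT) carried Ad-C, an adenovirus without insert, with the same vehicle. There were 3 arrays per group. The series has 3 experiments and the titles number the arrays E1 to E3 in each group, which is read here as 1 array of every group per experiment. No group received VitD with Ad-C, so a response that needs Ad-VDR and one that does not cannot be told apart here. All values are log2 RMA values as deposited, where a difference of 1 is a doubling of the signal. A gene was called at a Benjamini-Hochberg adjusted p under 0.05 over all 17687 genes (limma) together with a fold-change over 1.5.

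Hepatocytes make bile acids from cholesterol. In the classic route CYP7A1 takes the first and rate-limiting step and CYP8B1 directs the product to cholic acid, while CYP7B1 acts in the alternative route through oxysterols. BAAT then joins bile acids to glycine or taurine, SLC10A1 (NTCP) brings them back from the blood, and SLC51A with SLC51B forms OST, the heteromeric exporter of the basolateral membrane. Bile acids switch on the nuclear receptor FXR, encoded by NR1H4. Known targets of FXR are NR0B2, which encodes SHP, a receptor without a DNA-binding domain that represses CYP7A1, and FGF19, a hormone of the ileum that represses bile acid synthesis in the liver. VDR is itself a receptor for the bile acid lithocholic acid.

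The labels were checked first. VDR was at 17.50 ± 0.07 in VDR+VitD cells, 17.85 ± 0.04 in VDR cells and 6.35 ± 0.39 in CONT cells (SD, n = 3 each), and CYP24A1, the enzyme that breaks down VitD, was at 16.40 ± 0.03, 5.79 ± 0.47 and 7.39 ± 0.66 (SD, n = 3 each) in these groups. Of 9 measured hepatocyte markers, 8 lay above the 75th percentile of all genes by mean value and TAT, the tyrosine aminotransferase of mature liver, at the 35.4 percentile. None of the 9 was called in a comparison with limma. Mean values over 7 markers of enterocytes, the intestinal cells in which FGF19 and OST are prominent, lay between 6.24 and 6.32 on VDR+VitD arrays, between 5.95 and 6.01 on VDR arrays and between 5.92 and 6.04 on CONT arrays. Of these 7, ALPI, an intestinal phosphatase, and APOA4 were called higher with VitD, by 1.63 and 0.79 on the log2 scale, and 5 were not called. Over all genes 2.62% were called higher with VitD. FABP2 had a log2 fold change of -0.42 (limma adjusted p = 0.177), and SI, VIL1, CDX2 and LCT lay between -0.01 and 0.09. By mean value over all arrays the 7 markers ranged from the 6.56 percentile (SI) to the 84.4 percentile (VIL1), with the intestinal factor CDX2 at 39.8. The part of this shift in the results below was not tested. Of 6 cholangiocyte markers none, and of 11 markers of other liver cells none, was called in VDR+VitD against VDR cells. In that comparison 4.16% of all genes were called. Fewer cells of a type and less RNA per cell cannot be told apart in these bulk samples.

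In cells with Ad-VDR, the mRNA of SLC51B and of NR0B2 rose with VitD and that of BAAT fell. SLC51B was 9.08-fold higher, NR0B2 2.90-fold higher and BAAT 2.97-fold lower in VDR+VitD than in VDR cells. The other 6 genes, with all 3 hydroxylases, FGF19, SLC51A and SLC10A1 among them, were not called. Thus 3 of 9 genes were called, against 4.16% of all genes in this comparison. The 2 that rose stand against 2.62% called higher and the 1 that fell against 1.53% called lower. The 9 genes were chosen with earlier results of these data known, so the choice itself can raise these counts. The VDR+VitD and VDR arrays did not overlap for 6 of the 9 genes (NR0B2, CYP7A1, CYP8B1, BAAT, SLC51A and SLC51B), against 18.4% of all genes. The median absolute log2 fold change was 0.34 over the 9 genes and 0.14 over all genes.

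**Figure D1:**
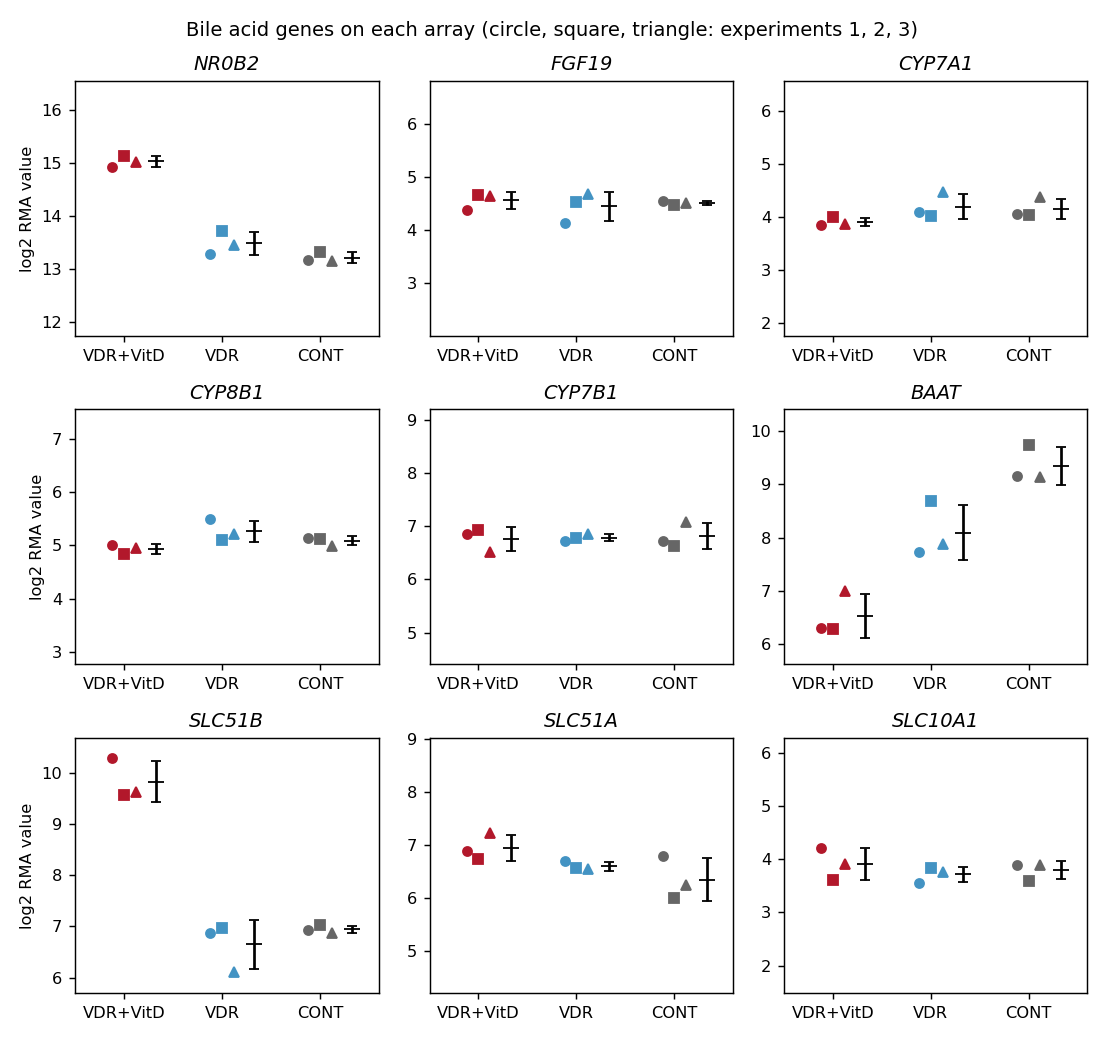
Log2 RMA value of the 9 measured genes on each array (vertical axis; every panel spans at least 4.8 log2 units), for VDR+VitD, VDR and CONT cells from left to right. Circles, squares and triangles are experiments 1, 2 and 3, and black bars are the mean with the SD (n = 3). NR0B2 and SLC51B stand highest on the 3 VDR+VitD arrays, and BAAT stands at 6.27 to 7.00 on VDR+VitD, 7.72 to 8.69 on VDR and 9.14 to 9.75 on CONT arrays.

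Promoter sequences are given for SLC51B and BAAT, which moved with VitD, and for the partner subunit SLC51A. None is printed for NR0B2, which had no entry in the table used. Of the 9 measured genes, 4 were searched in the RefSeq promoter table of GRCh38.p14 (SLC51B, SLC51A, BAAT and SLC10A1). It holds 250 bases before to 50 bases after each start site. CYP7A1 and CYP7B1 were left out of the search, so nothing can be said here of their promoters. Capitals mark the half-site AGGTCA, its variant GGGTCA, the form AGTTCA or the form GGTTCA on either strand. These are 6-letter words that nuclear receptors of this class bind in pairs. The SLC51B promoter is chr15:65045137-65045436 on the plus strand, that of SLC51A is chr3:196216284-196216583 on the plus strand, and BAAT has 2 start sites on the minus strand, with promoters at chr9:101383824-101384123 (start 1) and chr9:101383515-101383814 (start 2).
SLC51B: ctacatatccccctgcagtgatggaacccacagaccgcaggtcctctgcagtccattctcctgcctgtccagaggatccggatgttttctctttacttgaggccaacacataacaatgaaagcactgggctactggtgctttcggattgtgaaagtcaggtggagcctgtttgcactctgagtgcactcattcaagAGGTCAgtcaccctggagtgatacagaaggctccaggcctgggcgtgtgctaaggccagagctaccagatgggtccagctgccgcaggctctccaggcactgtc
SLC51A: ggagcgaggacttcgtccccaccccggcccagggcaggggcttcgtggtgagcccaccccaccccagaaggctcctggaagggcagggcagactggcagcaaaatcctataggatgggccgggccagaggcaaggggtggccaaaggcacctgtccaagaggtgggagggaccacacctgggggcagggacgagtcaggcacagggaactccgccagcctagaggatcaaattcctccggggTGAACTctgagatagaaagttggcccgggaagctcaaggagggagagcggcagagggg
BAAT start 1: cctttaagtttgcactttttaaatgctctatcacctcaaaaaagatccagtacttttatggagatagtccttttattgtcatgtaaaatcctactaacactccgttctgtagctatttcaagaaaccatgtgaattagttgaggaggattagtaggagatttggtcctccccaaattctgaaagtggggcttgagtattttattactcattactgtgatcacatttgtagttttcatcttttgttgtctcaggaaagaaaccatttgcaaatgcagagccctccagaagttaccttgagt
BAAT start 2: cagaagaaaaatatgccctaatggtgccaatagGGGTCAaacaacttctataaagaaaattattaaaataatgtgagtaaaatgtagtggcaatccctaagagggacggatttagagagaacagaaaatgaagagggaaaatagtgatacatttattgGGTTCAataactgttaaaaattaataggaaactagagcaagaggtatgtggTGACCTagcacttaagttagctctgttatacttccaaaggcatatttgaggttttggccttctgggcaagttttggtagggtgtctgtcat

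The SLC51B window held 1 half-site, AGGTCA, which begins at position -54 from the start site. The SLC51A window held 1, AGTTCA on the opposite strand, and so did that of SLC10A1, a gene not called with VitD, where AGGTCA begins at position -149 from the start. For BAAT, the window of start 1 held none and that of start 2 held 3: GGGTCA, then nearer the start GGTTCA, and on the opposite strand AGGTCA. Of 35116 promoters of the same length, 38.6% held at least 1 of these half-sites. AGGTCA was found in 13.8% of them, GGGTCA in 14.1%, AGTTCA in 10.4% and GGTTCA in 8.62%. No exact pair of these half-sites in the direct repeat spaced by 3 bases (DR3, the usual arrangement for VDR) or in the inverted repeat spaced by 1 base (IR1, the usual one for FXR) was in the windows of the 4 searched genes. Of all promoters, 0.074% and 0.0256% held them, so their absence from a few windows says little. Pairs with a changed letter were not searched for. In SLC51B the marked AGGTCA is followed after 1 base by TCACCC, which is 1 letter from GGGTCA read on the opposite strand. No such reading is given for the other windows or over all promoters, so it does not set SLC51B apart. All of these are matches of letters, and binding was not measured.

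Of the 2 regulators measured, NR0B2 (SHP) rose with VitD. It was at 14.93, 15.13 and 15.02 on the VDR+VitD arrays, against 13.29, 13.72 and 13.46 on the VDR arrays and 13.17, 13.33 and 13.15 on the CONT arrays. All 3 VDR+VitD arrays stood above the other 6, and the VDR and CONT ranges overlapped between 13.29 and 13.33. The rise with VitD was 1.54 in log2 units (standard error, SE = 0.14, limma adjusted p = 4.59e-06), with differences of 1.64, 1.41 and 1.56 within experiments 1, 2 and 3. Ad-VDR alone had a log2 fold change of 0.27 (95% confidence interval -0.02 to 0.57, limma adjusted p = 0.576). The mean of NR0B2 over all arrays lay at the 97.3 percentile of the genes, so its rise was seen on a transcript that these cells already carried in the control state.

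FGF19 lay low on the arrays, at the 24.8 percentile. Its values were 4.38, 4.66 and 4.65 in VDR+VitD cells, 4.14, 4.53 and 4.68 in VDR cells and 4.55, 4.48 and 4.52 in CONT cells, and the groups overlapped. The log2 fold change was 0.11 in VDR+VitD against VDR cells (95% confidence interval -0.21 to 0.44, limma adjusted p = 0.825). A change of FGF19 over 1.5-fold lies outside this interval, but a low signal can compress a change.

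The 3 hydroxylases of bile acid synthesis were not called in any comparison with limma. CYP7A1, the first enzyme of the classic route, was at 3.85, 3.99 and 3.87 in VDR+VitD cells, against 4.08, 4.02 and 4.46 in VDR cells and 4.05, 4.03 and 4.37 in CONT cells. The VDR+VitD arrays were the lowest 3 of the 9, with a log2 fold change of -0.28 against VDR cells (SE = 0.15, 95% confidence interval -0.60 to 0.04, limma adjusted p = 0.417). CYP7A1 lay at the 15.7 percentile of the genes, a low signal that limits what this value can show. CYP8B1, the sterol 12-alpha-hydroxylase, was at 5.01, 4.83 and 4.96 in VDR+VitD cells, against 5.49, 5.10 and 5.22 in VDR cells and 5.14, 5.13 and 4.99 in CONT cells. The VDR+VitD and VDR arrays did not overlap. The log2 fold change was -0.34 (SE = 0.14, 95% confidence interval -0.63 to -0.05, limma adjusted p = 0.232). Against CONT cells the VDR+VitD range of CYP8B1 overlapped, with a log2 fold change of -0.15 (limma adjusted p = 0.654). CYP7B1, the oxysterol 7-alpha-hydroxylase, was between 6.51 and 6.93 in VDR+VitD cells, 6.73 and 6.86 in VDR cells and 6.63 and 7.09 in CONT cells. Its log2 fold change with VitD was -0.03 (95% confidence interval -0.36 to 0.30), and the interval leaves out a change of 1.5-fold in either direction.

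**Figure D2:**
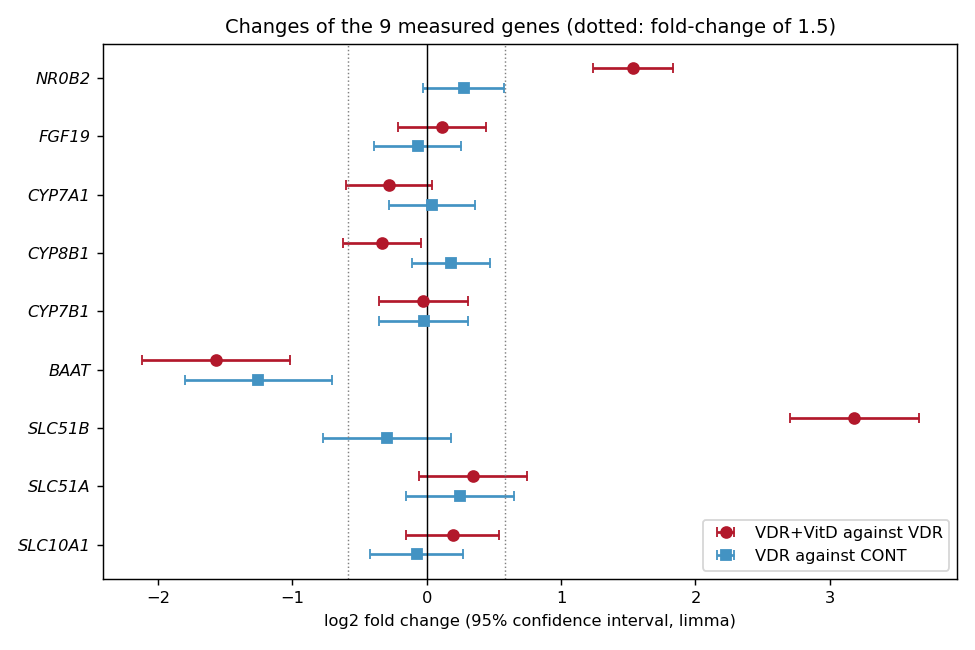
Log2 fold change of the 9 genes (horizontal axis, points) with its 95% confidence interval from limma (bars), for VDR+VitD against VDR (red circles) and VDR against CONT (blue squares). The dotted lines mark a fold-change of 1.5. With VitD, the intervals of SLC51B (2.71 to 3.66) and NR0B2 (1.24 to 1.83) lie above 0 and that of BAAT (-2.12 to -1.02) below it. The interval of CYP8B1, a gene not called, also lies below 0 with VitD (-0.63 to -0.05). BAAT lies below 0 with Ad-VDR alone as well (-1.80 to -0.70).

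BAAT, the enzyme of the last step of bile acid synthesis, had its lowest values with VitD and its highest with the control virus. It was at 6.30, 6.27 and 7.00 on VDR+VitD arrays, against 7.72, 8.69 and 7.87 on VDR arrays and 9.15, 9.75 and 9.14 on CONT arrays. No 2 of the 3 groups overlapped. BAAT fell by 1.57 with VitD (SE = 0.26, limma adjusted p = 0.00142), with differences of -1.42, -2.42 and -0.87 in the 3 experiments. In VDR+VitD against CONT cells it fell by 2.82 (SE = 0.26, limma adjusted p = 4.36e-06), which is 7.08-fold lower. For Ad-VDR without VitD the log2 fold change was -1.25 (SE = 0.26, 95% confidence interval -1.80 to -0.70), with differences of -1.43, -1.06 and -1.27 in the 3 experiments. This difference just missed the threshold (limma adjusted p = 0.0534) and passed it once the experiment entered as a block (adjusted p = 0.0272). Leaving out VDR replicate 2 (log2 fold change -1.55, adjusted p = 0.0115), or else VDR+VitD replicate 3 (adjusted p = 0.0403), also gave a call. It stayed without a call under 10 of the 17 alternatives. With 1 array left out the log2 fold change lay between -1.55 and -1.05, with a limma adjusted p of up to 0.243. The VDR arrays enter both steps, with opposite sign, so the 2 differences are not independent.

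**Figure D3:**
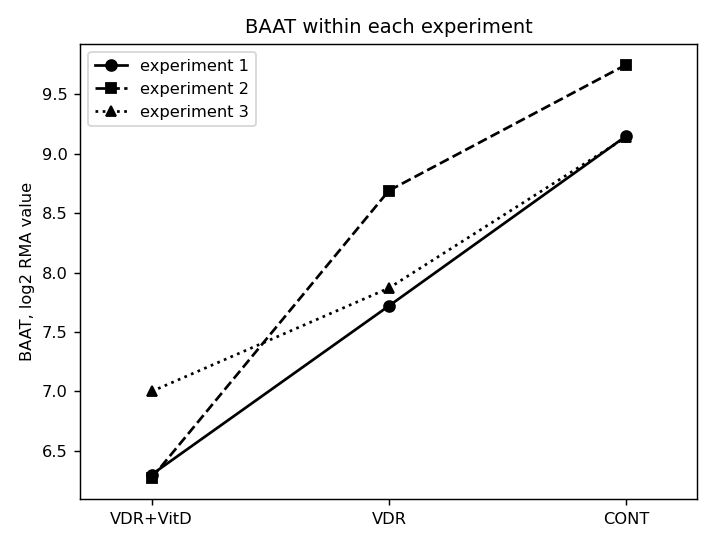
BAAT in each of the 3 experiments (line and marker styles), as log2 RMA value (vertical axis) in VDR+VitD, VDR and CONT cells from left to right. In each experiment the VDR+VitD value is the lowest (6.27 to 7.00) and the CONT value the highest (9.14 to 9.75).

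Of the 2 subunits of the exporter OST, SLC51B was called with VitD and SLC51A was not. SLC51B, the beta subunit, was at 10.29, 9.58 and 9.63 in VDR+VitD cells, against 6.87, 6.98 and 6.10 in VDR cells and 6.94, 7.02 and 6.88 in CONT cells. The VDR+VitD arrays stood far above the other 6, among which VDR replicate 3 was lowest. The rise with VitD was 3.18 (SE = 0.22, limma adjusted p = 3.28e-07), and it was 3.42, 2.60 and 3.53 within the 3 experiments. SLC51A, the alpha subunit, was at 6.89, 6.73 and 7.22 in VDR+VitD cells, against 6.70, 6.56 and 6.54 in VDR cells and 6.80, 6.01 and 6.24 in CONT cells. VDR+VitD arrays were just above the VDR arrays and overlapped with CONT replicate 1. Its log2 fold change with VitD was 0.35 (SE = 0.19, 95% confidence interval -0.05 to 0.75, limma adjusted p = 0.433).

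The difference of SLC51B minus SLC51A within an array, a measure chosen after the values were seen, was 3.40, 2.85 and 2.41 in VDR+VitD cells, against 0.17, 0.42 and -0.44 in VDR cells and 0.14, 1.01 and 0.64 in CONT cells. The VDR+VitD arrays lay above the other 6, and its mean was larger by 2.84 in VDR+VitD than in VDR cells, given as a description with no test. The levels of the 2 probe sets cannot be set against each other, only their changes. For SLC51A alone, the VDR+VitD against CONT difference was 0.60 (limma adjusted p = 0.0875). Without CONT replicate 1 it was 0.82 and SLC51A was called (adjusted p = 0.0114), as it was among the 8000 most variable genes (adjusted p = 0.0423).

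SLC10A1, the sodium-dependent uptake carrier of the hepatocyte, lay at the 10.2 percentile of the genes by mean value. It was at 4.21, 3.62 and 3.91 in VDR+VitD cells, against 3.56, 3.84 and 3.76 in VDR cells and 3.90, 3.60 and 3.89 in CONT cells, and the groups overlapped. The log2 fold change with VitD was 0.19 (95% confidence interval -0.15 to 0.54, limma adjusted p = 0.674). At this level on the array, a change of a rare transcript may not be visible.

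Ad-VDR without VitD left the 9 genes without a call. With limma, 0 of 9 were called in VDR against CONT cells, against 0.407% of all genes (72, or 140 when blocked by experiment, which also called BAAT). The 2 groups did not overlap for 1 of the 9 genes, BAAT again, against 13.1% of all genes. SLC51B had a log2 fold change of -0.30 (95% confidence interval -0.77 to 0.18), and the other 7 genes lay between -0.08 and 0.27. In VDR+VitD against CONT cells, NR0B2, SLC51B and BAAT were called again, 3 of 9 against 4.81% of all genes, with 2 higher (2.69% of all genes) and 1 lower (2.12%). NR0B2 was 3.51-fold and SLC51B 7.40-fold higher there. The arrays of these 2 groups did not overlap for 4 of 9 genes (the 3 called and CYP7A1), against 21.7% of all genes. This comparison shares its VDR+VitD arrays with that of VDR+VitD against VDR cells.

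The genes most like each called member were found by Pearson's r over the 9 arrays among all genes, as a description. The arrays form 3 groups, so r mostly reads the order of the groups. For NR0B2 these were RNF103, a ubiquitin ligase (r = 0.995), SLC6A12, the betaine transporter (r = 0.993), and TXNRD1, a thioredoxin reductase (r = 0.991), which had log2 fold changes of 1.78, 4.15 and 1.94 with VitD. For SLC51B they were ZNF703 (r = 0.994), OSGIN1 (r = 0.993) and SPRED2, an inhibitor of the Ras and MAPK route (r = 0.990), with 1.79, 3.28 and 1.02. For BAAT they were ANKRD1, a gene that responds to YAP (r = 0.991), MALT1, a paracaspase (r = 0.982), and TM4SF1, a membrane protein (r = 0.978), with -1.67, -0.40 and -0.41. ANKRD1 showed the same stepwise order as BAAT, with 9.23 ± 0.20 in VDR+VitD cells, 10.90 ± 0.36 in VDR cells and 12.24 ± 0.21 in CONT cells (SD, n = 3 each). So did MALT1 (means 11.27, 11.67 and 12.10) and TM4SF1 (16.74, 17.15 and 17.40), an order that the choice by r favours. Neither MALT1 nor TM4SF1 was called with VitD (limma adjusted p = 0.193 and 0.0889).

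Around the 9 genes, 5 lists of bile acid genes held 74 genes, of which 65 were measured and several stand in more than 1 list. HNF4A, NR1I2 and RXRA are among the 9 not analysed here. Of the 65 genes, 15 were called with VitD, 7 higher and 8 lower, against 4.16% of all genes called, 2.62% higher and 1.53% lower. The lists were chosen with earlier results of these data known. The choice itself can raise this count and those of the single lists below, which are given as a description. Of the 15 called, 12 were not among the members. The median log2 fold change was -0.02 over the 65 genes, whose calls went both ways, and -0.02 over all genes. In VDR against CONT cells limma called 0 of the 65, against 0.407% of all genes. With the experiment as a block 3 of the 65 were called there, against 140 of all 17687 genes. The 3 were BAAT, the uptake carrier SLCO2B1 (log2 fold change 1.16, adjusted p = 0.00137) and UGT2B10 (0.69, adjusted p = 0.048).

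Regulators of the pathway changed in both directions with VitD. Of 13 measured, 3 rose, 3 fell and 7 were not called, against 2.62% of all genes called higher and 1.53% called lower. FOXA2, a factor of the hepatocyte that controls bile acid transport genes, was at 8.92, 9.29 and 9.10 in VDR+VitD cells, against 10.80, 10.88 and 10.69 in VDR cells and 10.77, 10.70 and 10.79 in CONT cells. It fell by 1.69 (SE = 0.13, limma adjusted p = 9.97e-07). PROX1, a corepressor of NR5A2, was at 11.10, 11.25 and 11.07 in VDR+VitD cells, against 12.98, 12.91 and 12.93 in VDR cells and 12.79, 13.04 and 12.82 in CONT cells, a fall of 1.80 with VitD (limma adjusted p = 3.28e-07). For both genes the VDR+VitD arrays lay well below the other 6, which were close together. NR5A2 (LRH-1), the receptor through which SHP represses CYP7A1, fell by 0.92 to 9.14 ± 0.21 in VDR+VitD cells, against 10.06 ± 0.09 in VDR cells (SD, n = 3 each; limma adjusted p = 0.00133). PPARGC1A, a coactivator of bile acid and glucose genes, rose by 0.68 (limma adjusted p = 0.00848), and was not called without VDR+VitD replicate 2 (0.61, adjusted p = 0.0509). KLB, the coreceptor for FGF19, was named after its values were seen. It rose by 0.77 (limma adjusted p = 0.0104) and leaving out VDR replicate 2 (0.64, adjusted p = 0.0545), or else VDR+VitD replicate 3 (0.63, adjusted p = 0.0576), ended the call.

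**Figure D4:**
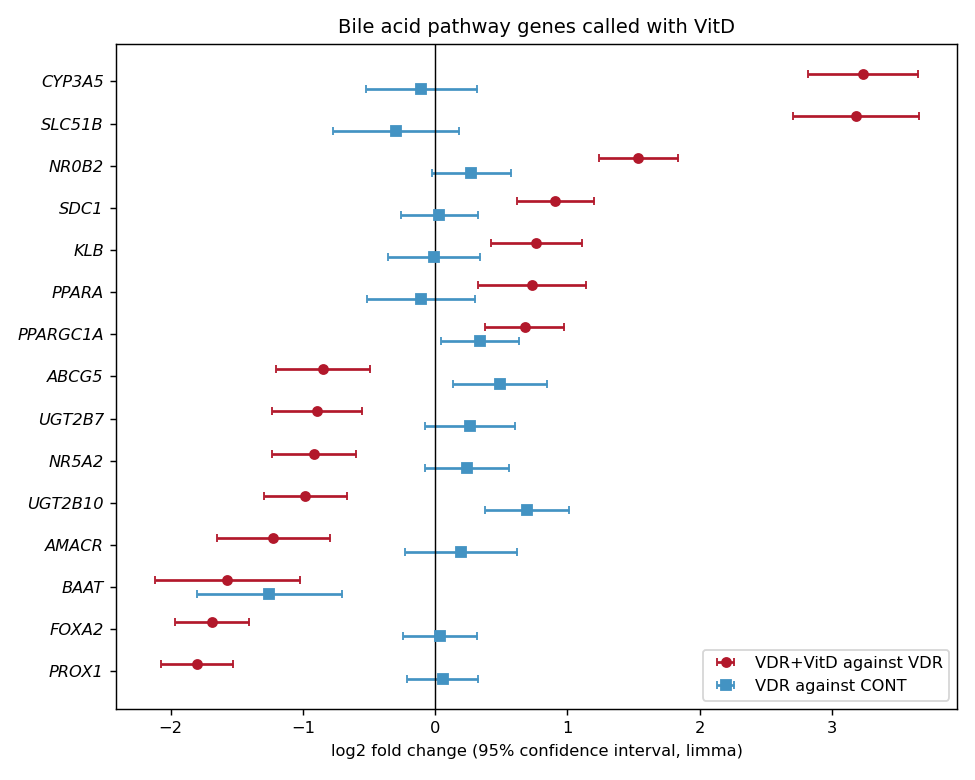
Log2 fold change (horizontal axis, points, with 95% confidence intervals from limma) of the 15 of 65 measured bile acid pathway genes called in VDR+VitD against VDR cells (red circles), and of the same genes in VDR against CONT cells (blue squares), ordered by the first. With VitD 7 lie above 0, from CYP3A5 at 3.24 to PPARGC1A at 0.68, and 8 below it, from ABCG5 at -0.85 to PROX1 at -1.80. The 2 comparisons share the VDR arrays.

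Of 16 measured genes of synthesis and conjugation, BAAT and AMACR fell with VitD and 14 were not called, against 1.53% of all genes called lower. AMACR, the racemase of side-chain shortening, was at 8.67, 8.60 and 8.41 in VDR+VitD cells, against 9.98, 9.24 and 10.13 in VDR cells and 9.68, 9.37 and 9.71 in CONT cells. The VDR+VitD arrays were below the other 6, and the fall was 1.22 (SE = 0.20, limma adjusted p = 0.00132). ACOX2, the peroxisomal oxidase of the same step, was called only in VDR+VitD against CONT cells (0.76, limma adjusted p = 0.0448). It lost that call without any 1 of 6 arrays: VDR+VitD replicates 1, 2 and 3, VDR replicate 2 and CONT replicates 2 and 3 (0.56 to 0.85, adjusted p between 0.056 and 0.199).

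Of 18 measured transport genes, SLC51B rose and ABCG5, a subunit of the canalicular sterol exporter, fell with VitD, and 16 were not called. Over all genes 2.62% were called higher and 1.53% lower. ABCG5 was at 7.82, 7.60 and 8.30 in VDR+VitD cells, against 8.88, 8.78 and 8.61 in VDR cells and 8.29, 8.18 and 8.33 in CONT cells. It fell by 0.85 against VDR cells (limma adjusted p = 0.00595), and its VDR+VitD values overlapped with those of CONT cells. SLCO2B1 was called in VDR+VitD against CONT cells (1.42, limma adjusted p = 0.0075). Its log2 fold change was already 1.16 in VDR against CONT cells (limma adjusted p = 0.122), where it was called with the block or among the 8000 most variable genes (adjusted p = 0.00137 and 0.00949). The choice of the 8000 genes itself favours such a call. ABCB11, the bile salt export pump, was among the genes not called. Its signal was low, with means of 3.59 in VDR+VitD, 3.72 in VDR and 3.78 in CONT cells, which limits what this can show.

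Of 23 measured genes reported as targets of FXR in human cells, 4 rose with VitD, 1 fell and 18 were not called, against 4.16% of all genes called in either direction, and 3 of the 5 called are NR0B2, SLC51B and BAAT. The others, SDC1 and PPARA, both rose. SDC1, which encodes syndecan-1, was at 11.64, 11.85 and 11.87 in VDR+VitD cells, against 10.93, 10.91 and 10.79 in VDR cells and 11.06, 10.76 and 10.71 in CONT cells, a rise of 0.91 (limma adjusted p = 0.00064). PPARA, a receptor for fatty acids, rose by 0.73 (limma adjusted p = 0.0373). Its call was lost when blocked by experiment (adjusted p = 0.0525), among the 6 arrays compared alone (adjusted p = 0.0511) and without any VDR replicate, CONT replicate 1 or VDR+VitD replicate 3 (0.51 to 0.81, adjusted p between 0.053 and 0.151). KNG1, which encodes kininogen, was called only in VDR+VitD against CONT cells (0.84, limma adjusted p = 0.0102). It was not called there without VDR+VitD replicate 1 or CONT replicate 2 or 3 (0.68 to 0.77, adjusted p between 0.0522 and 0.0574). The median log2 fold change of the 23 genes with VitD was -0.01, against -0.02 over all genes.

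Of 7 measured genes of bile acid detoxification, CYP3A5 rose with VitD, UGT2B10 and UGT2B7 fell and 4 were not called. Over all genes 2.62% were called higher and 1.53% lower. CYP3A5, an oxidase of steroids and drugs, was at 9.22, 9.66 and 9.78 in VDR+VitD cells, against 6.40, 6.23 and 6.32 in VDR cells and 6.05, 6.87 and 6.34 in CONT cells, a rise of 3.24 (SE = 0.20, limma adjusted p = 6.77e-08). UGT2B10 was at 9.60, 9.63 and 9.34 in VDR+VitD cells, against 10.35, 10.75 and 10.41 in VDR cells and 9.98, 9.72 and 9.73 in CONT cells. The VDR+VitD arrays were the lowest and the VDR arrays the highest, and the fall with VitD was 0.98 (limma adjusted p = 0.000688). UGT2B7, like UGT2B10 a glucuronosyltransferase, fell by 0.89 (limma adjusted p = 0.00281). The 4 not called were CYP3A4 (log2 fold change 0.20, limma adjusted p = 0.601), SULT2A1 (0.45, adjusted p = 0.209), CYP2B6 (0.53, adjusted p = 0.388) and UGT2B4. UGT2B4 had a log2 fold change of -0.55 (limma adjusted p = 0.0409), a fold-change under 1.5. CYP3A4 had a low signal, with means of 4.06 in VDR+VitD and 3.87 in VDR cells. The CYP3A and UGT2B families hold near-identical copies, so their probes may also read a relative of the named gene.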

How the data were processed

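RNA from 9 HepG2 cultures was measured on Clariom S arrays. The authors deposited log2 values of 21448 transcript clusters, made by RMA, which corrects background, quantile-normalizes the arrays and summarises probes, in Transcriptome Analysis Console 4.0.2, per the labels. The methods name tests on filtered probe sets, and the deposited values hold dim clusters too. Quantile normalization hides a shift shared by most genes, and low signals understate changes. The array medians lay between 6.16 and 6.20, and precision is limited by the number of arrays. P-values measure the spread between cultures of 3 experiments. The genome build behind the probes was not given in the sources used here.

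Symbols came from the platform annotation: 17709 clusters had 1 symbol, and those of 20 genes with several clusters were averaged, which left 17687 genes. Each comparison was fitted by lmFit and eBayes of limma 3.58.1 under R 4.3.3 (group as the only factor, all 9 arrays), with Benjamini-Hochberg adjustment over all genes, and the script was tested on simulated data. The members and gene lists were chosen with earlier results of these data known. Named besides the members are up to 4 called genes per list by largest change, and for each member called with VitD the 3 genes with the highest Pearson correlation. Each enterocyte, cholangiocyte, hepatocyte and other liver cell list was read in the same fit.

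The design text gives 3 independent experiments and the titles the numbers E1 to E3, which were read as pairing the arrays. No label states outright that equal numbers mark a shared experiment. Deviations from the group means correlated with r between 0.042 and 0.145 in the 9 pairs of the same number and between -0.096 and 0.010 in 18 pairs of different number and group. The methods name no block, so the fit without it is given first. Alternatives were the experiment as a block, only the 6 arrays compared, dim genes left out (below the 25th percentile), the 8000 most variable genes, limma's treat, an intensity trend, median centring, clusters not averaged, VDR+VitD against all 6 arrays without VitD, and each array left out. The 8000 genes were picked by interquartile range over all 9 arrays, which favours genes that differ between groups. Calls gained under that filter are therefore no independent support.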

Additional observations from a re-analysis of the deposited data

How the results depend on the processing

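The calls of NR0B2 and SLC51B with VitD held under all 17 alternatives run for them, and that of BAAT under 16. With limma's treat against a fold-change of 1.5 BAAT was not called (adjusted p = 0.0773), and the counts with VitD became 188 of all genes and 5 of the bile acid genes, and against CONT cells 207 and 6. For VDR against CONT cells, the count of 72 genes over all became 140 with the experiment as a block, 141 with the 8000 most variable genes, 142 with an intensity trend and 11 with treat. It lay between 27 and 69 with 1 array left out, with 27 when CONT replicate 2 was omitted and 35 or 37 when VDR replicate 3 or 1 was. There the count of 0 members became 1 (BAAT) with the block, with dim genes left out, with the 8000 most variable genes, with the trend and with median centring, and lay between 0 and 1 with 1 array left out. The 0 bile acid genes became 3 with the block, 3 with the 8000 most variable genes, 2 with the trend and 1 with dim genes left out or median centring, and lay between 0 and 1 with 1 array left out. The block, which pairs the arrays of an experiment, also ended the call of PPARA with VitD, and besides BAAT, SLCO2B1, UGT2B10 and PPARA it changed no call of a gene named from the lists. Over 27 results of the members and their alternatives, 414 of 438 kept direction and call.

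Signs turned only for log2 fold changes near 0, when 1 array was left out. In VDR against CONT cells the ranges were -0.10 to 0.15 for CYP7A1, -0.12 to 0.12 for CYP7B1, -0.18 to 0.088 for FGF19, -0.18 to 0.0033 for SLC10A1, -0.29 to 0.12 for CYP3A5, -0.0083 to 0.087 for FOXA2, -0.12 to 0.12 for KLB, -0.23 to 0.023 for PPARA and -0.033 to 0.14 for SDC1. In VDR+VitD against CONT cells they were -0.14 to 0.088 for CYP7B1, -0.0017 to 0.14 for FGF19 and -0.032 to 0.26 for SLC10A1, and with VitD against VDR cells -0.11 to 0.10 for CYP7B1 and -0.042 to 0.23 for FGF19. The dim filter left 6 and the variation filter 5 of the 9 genes, so FGF19, CYP7A1 and SLC10A1 had no value under the first. The cause of these shifts was not tested. Low signal limits what can be read of FGF19, CYP7A1 and SLC10A1.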

Other observations

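In VDR+VitD against CONT cells, NR5A2 and UGT2B7 were called lower, by 0.67 and 0.63 on the log2 scale (adjusted p = 0.0129 and 0.0293 from limma). NR5A2 lost this call without CONT replicate 1 or 2 or VDR+VitD replicate 1 or 2 (adjusted p between 0.0589 and 0.0685). UGT2B7 lost it without any CONT replicate or VDR+VitD replicate 1 or 2 (adjusted p between 0.0525 and 0.142). KLB was called higher there, by 0.76 (adjusted p = 0.00977), and not without VDR+VitD replicate 3 (0.62, adjusted p = 0.0519). KRT19, a keratin of bile duct cells, was the only 1 of 6 cholangiocyte markers called in this comparison, with 12.04 in VDR+VitD cells against 13.04 in CONT cells (limma adjusted p = 0.000922). Over all genes 2.12% were called lower there.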
